A study of Mus musculus with 10 samples.

Results

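Cholesterol is built from acetyl-CoA, imported from lipoproteins and stored as esters, and 31 genes of these steps were followed in mouse ovaries that lacked or kept retinoic acid receptors in their somatic cells. The genes were chosen by name, as the enzymes of the mevalonate part (8 genes) and of the squalene and sterol part (12 genes) of cholesterol synthesis, the regulators of that pathway (5 genes), and genes of sterol transport and storage (6 genes). Each of the 31 symbols was found once among the 24306 genes of the count table. All 31 had enough counts to be tested, beside 20570 genes in all.

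RNA was sequenced from 10 mouse ovary samples taken at 6 weeks of age (strain C57BL/6 and 129, mixed), and the study's title asks whether retinoic acid signalling is needed by the somatic ovary. The 5 controls were homozygous for floxed alleles of Rara, Rarb and Rarg, which encode the retinoic acid receptors, had wild-type Dmrt1 (+/+) and carried no Cre (Sf1-Cre-). The 3 Rar mutants had the same floxed alleles and Sf1-Cre+, a Cre recombinase driven by regulatory sequence of Nr5a1 (Sf1), expressed by gonadal somatic cells and the adrenal cortex. The 2 Dmrt1 het Rar mutants carried the same floxed alleles and Sf1-Cre+ with, in addition, 1 floxed copy of Dmrt1 (fl/+), a regulator of gonadal sex. No group carried Sf1-Cre without floxed Rar alleles. Whole ovaries were used, so that fewer cells of a type and less RNA per cell cannot be told apart. The labels do not say whether libraries of a group came from separate animals, and p-values then measure only the spread between these samples.

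Libraries held 21064856 to 25920131 counts, and the 31 genes took 0.203% (control 3) to 0.496% (control 1) of them. Levels within a gene are given in CPM, counts brought to one common library size after scaling by the trimmed mean of M-values (TMM). The limit that a count of 0 sets is 3 counts (0.118 to 0.137 CPM) and covers counting error only. Rarg lay between 14.9 and 22.0 CPM in the 5 Cre-positive ovaries and between 24.3 and 32.7 CPM in controls, without passing the test (log2 fold change for Rar mutants -0.78, SE 0.15, edgeR adjusted p = 0.104). Rara (20.1 to 37.1 CPM in controls, 20.4 to 30.8 CPM in Rar mutants) and Rarb (2.42 to 4.58 against 2.4 to 2.91 CPM) overlapped between groups, and a count over the whole gene need not show a deleted part. Dmrt1 had 0 counts in 9 libraries and 0.219 CPM in Dmrt1 het Rar mutant 2, a level at which the loss of 1 allele cannot be checked. Granulosa markers (10 of 10 in the table, summed level 3570 to 9430 CPM) and oocyte markers (12 of 12) were present in all 10 libraries. The oocyte markers summed to 273 CPM in Rar mutant 1, where each of the 12 was at its lowest, and to 528 to 954 CPM in the other libraries. Rar mutant 3 stood apart in periovulatory genes (9 of 10 listed in the table), which summed to 2640 CPM there, 651 CPM in Rar mutant 2, 48.1 CPM in Rar mutant 1 and 29.3 to 66.3 CPM elsewhere. Of the sum in Rar mutant 2, 620 CPM was Adamts1 alone, a protease of the follicle wall, and its other periovulatory genes stood at 10.5 CPM or less. Genes of the adrenal cortex (5 of 5) summed to 299 CPM in Rar mutant 2 and 274 CPM in Rar mutant 3, against 3.31 CPM in Rar mutant 1 and 0.655 to 1.23 CPM in the other 7 libraries. Of the sums in Rar mutants 2 and 3, 248 and 261 CPM were Akr1b7 alone. Both Dmrt1 het Rar mutants, control 1 and Rar mutant 1 have sample title numbers under 7800, which the labels do not explain and which may mark a batch.

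Cholesterol synthesis begins with the condensation of acetyl-CoA units, passes through mevalonate, isoprenoids and squalene, and ends with the trimming of the first sterol, lanosterol, into cholesterol. The transcription factor encoded by Srebf2 switches on these enzymes when cellular sterols are low: Scap escorts it to the Golgi, where it is cut free, and the Insig proteins hold the pair back in the endoplasmic reticulum when sterols are plentiful. In the ovary, theca and luteal cells use cholesterol as the substrate for steroid hormones and keep a reserve of it as esters in lipid droplets.

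Promoter sequence is shown for 4 genes that the values below turn on: Hmgcs1, the most abundant member in controls per length; Cyp51, with the largest fold change; Insig1, set apart in Rar mutant 3; and Hsd17b7, with the widest spread between libraries. The stretches lie upstream of the RefSeq start site in GRCm38.p6 and are written from 5′ to 3′ on the strand of the gene, without bases that an exon covers. Capitals mark 3 motifs searched on both strands: the CCAAT box (CCAAT), the E-box (CACGTG) and the letters of a sterol regulatory element (TCACNCCAC), none of which overlapped another here. The Hmgcs1 stretch is chr13:119690101-119690350 on the plus strand, with the sterol regulatory element at -137 to -129. The Cyp51 stretch is chr5:4104747-4104947 on the minus strand and holds none of the motifs; the CCAAT box counted for Cyp51 below lies nearer to the start, in bases an exon covers. The Insig1 stretch is chr5:28071162-28071362 on the plus strand, with the E-box at -101 to -96. The Hsd17b7 stretch is chr1:169969242-169969408 on the minus strand, with the E-box at -143 to -138.
Hmgcs1: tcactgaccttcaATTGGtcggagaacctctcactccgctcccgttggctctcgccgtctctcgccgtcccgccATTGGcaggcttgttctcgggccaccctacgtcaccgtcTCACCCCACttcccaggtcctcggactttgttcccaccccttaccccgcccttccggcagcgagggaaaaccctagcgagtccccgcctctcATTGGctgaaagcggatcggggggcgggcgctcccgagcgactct
Cyp51: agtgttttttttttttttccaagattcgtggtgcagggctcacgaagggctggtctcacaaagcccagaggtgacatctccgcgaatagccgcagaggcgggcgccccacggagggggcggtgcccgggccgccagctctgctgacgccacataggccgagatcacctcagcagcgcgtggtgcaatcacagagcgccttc
Insig1: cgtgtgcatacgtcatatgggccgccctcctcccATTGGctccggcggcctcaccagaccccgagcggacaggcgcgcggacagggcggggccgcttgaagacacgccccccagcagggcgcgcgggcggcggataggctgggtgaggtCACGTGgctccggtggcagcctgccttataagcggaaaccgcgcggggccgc
Hsd17b7: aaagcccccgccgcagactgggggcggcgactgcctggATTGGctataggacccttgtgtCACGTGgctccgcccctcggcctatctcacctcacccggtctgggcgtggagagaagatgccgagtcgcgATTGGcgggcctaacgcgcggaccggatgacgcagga

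Of the 31 members, 26 had a promoter in the RefSeq table, of which the 250 bases upstream of the start were searched (all but Fdps, Fdft1, Sqle, Stard4 and Npc1). A CCAAT box lay in the windows of 22 of the 26 members (84.6%), against 39.4% of the 12592 tested genes with a window. Acat2, Scap, Abca1 and Lipe lacked it. The E-box was found for 7 members (26.9%): Hsd17b7, Sc5d, Dhcr7, Scap, Insig1, Abca1 and Lipe. Among tested genes its share was 9.22%. The sterol regulatory element in these letters was found for Hmgcs1 alone (3.85%), against 1.33% of tested genes. Of all 32851 windows in the table, 33.8% held a CCAAT box, 6.02% an E-box and 1.05% the sterol element. These are letter matches in a fixed window and say nothing of factors bound there.

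In control ovaries the members spanned a wide range of abundance. Between genes, levels are compared in the deposited FPKM, which is per length of transcript. Hmgcs1, which makes HMG-CoA, the precursor of mevalonate, was the most abundant at 113 ± 43.2 FPKM (SD, n = 5), above 96.5% of tested genes. Npc2, a sterol carrier of the lysosome, followed at 87.3 ± 13.9 FPKM, and Soat1, the enzyme that esterifies cholesterol for storage, at 70.5 ± 10.5 FPKM. Hsd17b7, a sterol 3-ketoreductase that also acts on estrone, had a mean of 57.2 ± 73.8 FPKM. Fdft1, the squalene synthase, reached 41.0 ± 4.21 FPKM, Scap 30.6 ± 6.2 FPKM and Msmo1, a methylsterol oxidase, 30.4 ± 5.65 FPKM. Near the other end stood Lipe, the hormone-sensitive lipase that frees cholesterol from esters (3.58 ± 0.842 FPKM), Lss, the lanosterol synthase (3.52 ± 1.41 FPKM), and Npc1, the membrane partner of Npc2 in sterol export from lysosomes (3.36 ± 0.423 FPKM, above 47.5% of tested genes). In all 30 pairs of neighbours in this order the ranges over the 5 controls overlapped. For 2 of these pairs, Npc2 over Soat1 and Acat2 over Srebf2, the order was the same within each of the 5 controls, from whose means it was set.

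**Figure D1:**
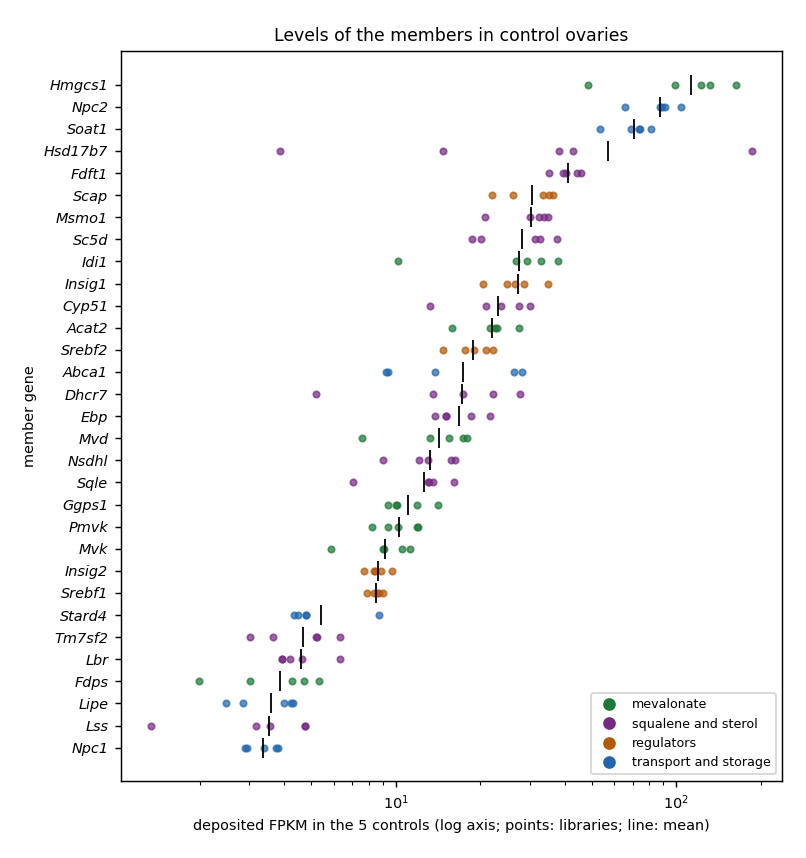
Deposited FPKM (x axis, log scale) of the 31 genes (y axis, ordered by mean) in the 5 control ovaries; each point is a library, the black line is the mean and the colour gives the role. Levels run from a mean of 3.36 FPKM for Npc1 to 113 FPKM for Hmgcs1, and the points of Hsd17b7 run from 3.88 to 186 FPKM.

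The controls themselves differed in these genes. The SD of log2 CPM over the 5 controls was 2.07 for Hsd17b7, wider than in 99.5% of tested genes, 0.94 for Dhcr7, which carries out the last reduction to cholesterol, 0.78 for the cholesterol exporter Abca1, 0.76 for the isoprenoid isomerase Idi1, 0.75 for Lss and 0.68 for Hmgcs1. At the narrow end, Srebf1, which chiefly drives fatty acid genes, had an SD of 0.07 (wider than in 1.39% of tested genes), Insig2 0.12 and Fdft1 0.16. Control 3 was the lowest of all 10 libraries for 14 of the 31 members, where 15.9% of all tested genes were lowest in that library. Its median log2 deviation from the control mean was -0.45 over all members and -0.65 over the mevalonate genes, against -0.01 over all tested genes. In the same library Star, the cholesterol importer of mitochondria, stood at 81.7 CPM against 593 to 769 CPM in the other controls. Its corpus luteum markers summed to 9440 CPM (13400 to 17900 CPM in the other controls) and its granulosa markers to 9430 CPM (5090 to 6360 CPM). Whether the cell makeup of control 3 bears on its low cholesterol genes was not tested.

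Hsd17b7 showed the widest range of the set, 48.1-fold between the highest and the lowest library. It stood at 959, 75.4, 19.9, 198 and 221 CPM in controls 1 to 5, at 296, 28.7 and 178 CPM in Rar mutants 1 to 3, and at 250 and 521 CPM in the Dmrt1 het Rar mutants. The groups overlapped fully, and both the highest and the lowest value were controls. The log2 fold change of Rar mutants against controls was -0.81 (SE 1.03, edgeR adjusted p = 0.883). Ptgfr, the prostaglandin F receptor by which the corpus luteum is made to regress, stood at 663, 88.5, 50.3, 365 and 168 CPM in the controls, at 396, 69.2 and 202 CPM in the Rar mutants and at 342 and 379 CPM in the Dmrt1 het Rar mutants. Prlr, the prolactin receptor that sustains the corpus luteum, was highest in Rar mutant 1 (1080 CPM) and control 1 (968 CPM) and lay between 332 and 625 CPM elsewhere. Akr1c18, which inactivates progesterone in the regressing corpus luteum, had another order, with 1810 CPM in control 4, 50.4 CPM in control 1 and 30.5 to 488 CPM elsewhere. Among the other corpus luteum markers, Lhcgr was highest in control 1 (713 CPM). Hsd3b1 (10100 CPM) and Cyp11a1 (6330 CPM) were highest in Rar mutant 1, and Parm1 (105 CPM) in Rar mutant 2. Star (6440 CPM) and Sfrp4 (1880 CPM) were highest in Rar mutant 3. Summed, the 9 markers were highest in Rar mutant 1 (19600 CPM) and control 4 (17900 CPM), with 16400 CPM in control 1. The largest parts of these sums were Hsd3b1 and Cyp11a1, at 8130 and 4880 CPM in control 4 and 7390 and 4910 CPM in control 1. The part of luteal content in the spread of Hsd17b7 was not tested.

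**Figure D2:**
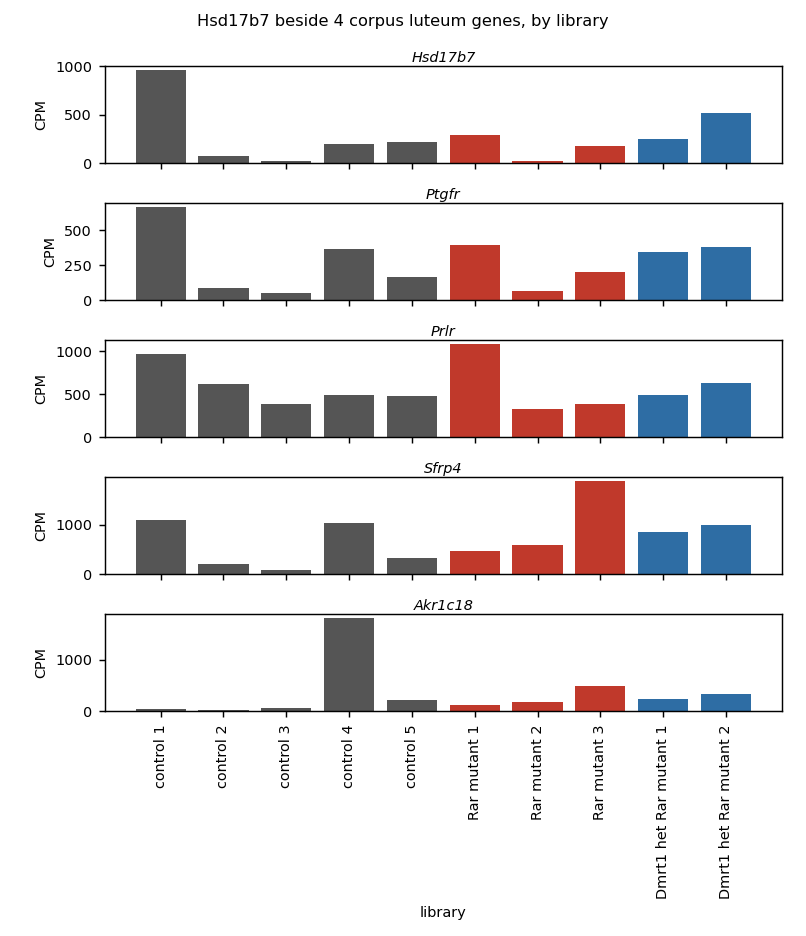
CPM (y axes, each from 0) of Hsd17b7 and of 4 of the 9 corpus luteum markers in each of the 10 libraries (x axis), coloured by group. Hsd17b7 and Ptgfr are both highest in control 1 (959 and 663 CPM) and low in control 3 and Rar mutant 2. Akr1c18 is highest in control 4 (1810 CPM), Prlr in Rar mutant 1 (1080 CPM) and Sfrp4 in Rar mutant 3 (1880 CPM).

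Rar mutants were compared with controls to ask whether loss of the retinoic acid receptors changed these genes. In the Rar mutants, 23 of the 31 members had a higher fitted level than in controls, and none passed the test. The largest differences were those of Cyp51 (2.35-fold), Abca1 (2.15-fold) and Idi1 (2.02-fold), all higher in Rar mutants, each with adjusted p above 0.05. The median log2 fold change was 0.20 over the members and -0.02 over all genes, and 46.9% of all genes had a positive fold change. By library, the median log2 deviation of the members from the control mean was 0.22, 0.14 and 0.24 in Rar mutants 1 to 3. In controls 1 to 5 it was 0.21, 0.09, -0.45, 0.04 and 0.23, so Rar mutants 1 and 2 lay within the range of the controls. By role, the medians were 0.39 for the squalene and sterol genes (9 of 12 positive), 0.25 for the regulators (4 of 5), 0.22 for the mevalonate genes (7 of 8) and 0.02 for transport and storage (3 of 6).

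edgeR's quasi-likelihood test called 2 of 20570 genes (0.00972%) and 0 of 31 members in this comparison at an adjusted p under 0.05. At an unadjusted p under 0.05 there were 5 members, all higher (Cyp51, Abca1, Insig2, Idi1 and Msmo1), beside 9.45% of all genes in either direction and 5.61% in the higher direction (3.84% lower). DESeq2 called 374 genes (1.82%) and 0 members. A term for title numbers under 7800 gave 85 called genes (0.413%) and 0 members. Every Rar mutant lay above every control for 2 members, Insig2 and Abca1, and below every control for 0, against 2.41% and 2.74% of all genes. The controls are shared by this comparison and the one of Dmrt1 het Rar mutants below.

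Among the mevalonate genes, Idi1, which isomerises isopentenyl diphosphate (ENSMUSG00000058258, GRCm38 chromosome 13, 8885501 to 8892451), stood at 135, 94.3, 35.9, 104 and 117 CPM in the controls. In the Rar mutants it stood at 129, 164 and 296 CPM. Rar mutants 2 and 3 exceeded every control, Rar mutant 1 did not, and the log2 fold change came to 1.02 (SE 0.40, edgeR adjusted p = 0.433). Fdps, the farnesyl diphosphate synthase, stood at 12.8, 18, 8.43, 20 and 22.6 CPM in the controls and at 20.9, 31.4 and 17.8 CPM in the Rar mutants. Its ranges overlapped, with only Rar mutant 2 above all controls (log2 fold change 0.51, SE 0.31, edgeR adjusted p = 0.686).

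Hmgcs1 (ENSMUSG00000093930, chromosome 13, 119690379 to 119708260), whose promoter carries the sterol element printed above, stood at 537, 427, 157, 325 and 401 CPM in the controls. Its Rar mutant values were 719, 376 and 359 CPM. Only Rar mutant 1 exceeded the controls (log2 fold change 0.39, SE 0.37, edgeR adjusted p = 0.822), and without that library the fold change was -0.01. Of the other mevalonate genes, Acat2, the cytosolic acetyl-CoA acetyltransferase, Mvk and Pmvk, the kinases of mevalonate and phosphomevalonate, and Ggps1, which makes geranylgeranyl diphosphate, had log2 fold changes of 0.14 to 0.25. Mvd, the decarboxylase that makes isopentenyl diphosphate, had -0.24, with all 3 Rar mutants (19.8 to 25.4 CPM) below the control mean of 26.8 CPM.

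Among the squalene and sterol genes, Cyp51 (ENSMUSG00000001467, chromosome 5, 4081145 to 4104746), the lanosterol demethylase, had the largest fold change. It stood at 135, 92.6, 58.5, 106 and 122 CPM in the controls and at 112, 206 and 407 CPM in the Rar mutants. Rar mutants 2 and 3 lay above all controls and Rar mutant 1 within them, and the log2 fold change came to 1.23 (SE 0.37, edgeR adjusted p = 0.269). Part of its exons overlap exons of Akap9 on the other strand, and the sources used here do not say whether counting used strand. Without Rar mutant 1 the fold change was 1.57 and Cyp51 was called (edgeR adjusted p = 0.0402), the only member among 384 called genes (1.88%). Without Rar mutant 3 it was 0.61 (edgeR adjusted p = 0.774).

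Msmo1 (ENSMUSG00000031604, chromosome 8, 64718139 to 64733792), which acts on the sterols that Cyp51 yields, stood at 217, 199, 129, 210 and 186 CPM in the controls. Its Rar mutant values were 198, 245 and 413 CPM, again with Rar mutants 2 and 3 above all controls (log2 fold change 0.60, SE 0.25, edgeR adjusted p = 0.462). Sqle, the squalene epoxidase and a rate-limiting step, stood at 90, 72.8, 39.2, 76.1 and 72.9 CPM in the controls and at 92.8, 70.7 and 153 CPM in the Rar mutants. The log2 fold change came to 0.59 (SE 0.28, edgeR adjusted p = 0.561), and Rar mutant 2 lay within the controls. Without Rar mutant 3 the log2 fold changes were 0.23 for Msmo1, 0.21 for Sqle and 0.58 for Idi1. Of the other sterol genes, Sc5d and Dhcr7, which act in the last steps, had means of 215 ± 84.9 against 138 ± 40.3 CPM and 141 ± 45.3 against 101 ± 50 CPM. Nsdhl, which works beside Msmo1, had 52.7 ± 10.7 against 38.0 ± 8.49 CPM, with all 3 Rar mutants above the control mean. Ebp, the sterol isomerase, and Fdft1 had nearly the same means in both groups (39.8 against 39.2 CPM and 117 against 118 CPM). Lss averaged 47.5 ± 6.21 against 38.2 ± 15.3 CPM, and Tm7sf2, a sterol reductase, 15.2 ± 7.89 against 16.4 ± 4.72 CPM, with the lowest value of all libraries (7 CPM) in Rar mutant 3.

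**Figure D3:**
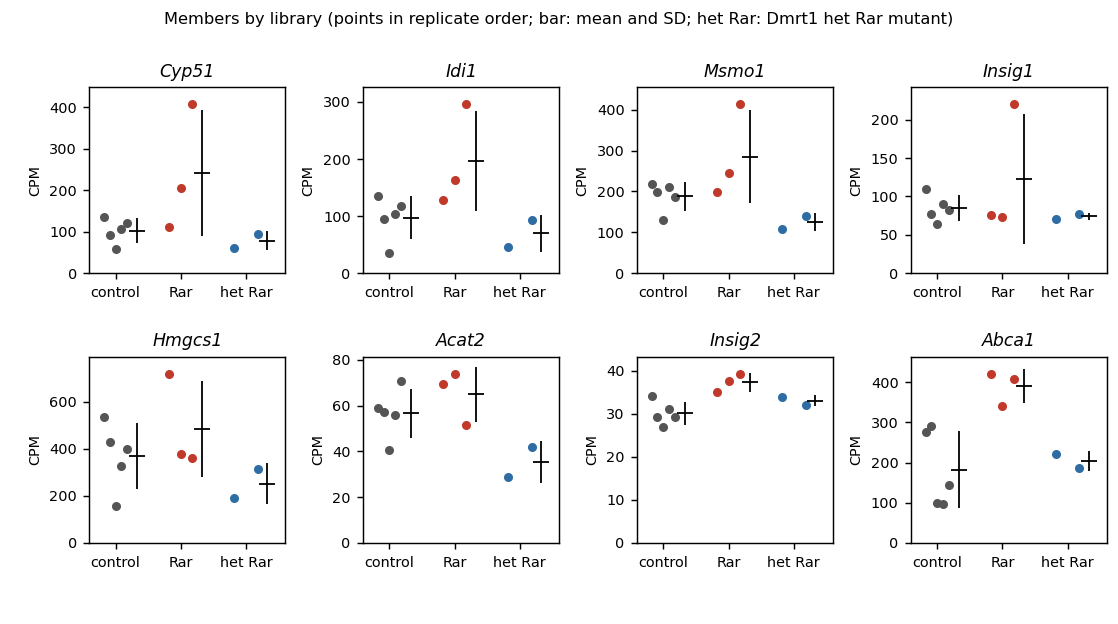
CPM (y axes, from 0) of 8 cholesterol genes in control, Rar mutant (Rar) and Dmrt1 het Rar mutant (het Rar) ovaries; points are libraries in replicate order, and bars beside them give the mean and SD. Rar mutant 3 is the highest point for Cyp51 (407 CPM), Idi1 (296 CPM), Msmo1 (413 CPM) and Insig1 (220 CPM), whereas Abca1 is high in all 3 Rar mutants (342 to 421 CPM).

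The transcription factors of the pathway varied little. Srebf2 stood at 112, 104, 73.9, 95.9 and 88.4 CPM in the controls and at 106, 100 and 134 CPM in the Rar mutants (log2 fold change 0.25, SE 0.16, edgeR adjusted p = 0.698). Srebf1 ranged from 44.9 to 51.1 CPM in the controls and from 47.9 to 54.3 CPM in the Rar mutants (log2 fold change 0.10, SE 0.11, edgeR adjusted p = 0.844). Scap was lowest of all libraries in Rar mutant 3 at 97.5 CPM, with 165 to 270 CPM in the controls. Srebf1 and Scap share exon sequence with antisense genes (Rai1 and 5830462I19Rik).

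The 2 Insig genes had different patterns. Insig2 (ENSMUSG00000003721, chromosome 1, 121304353 to 121332589) stood at 34.1, 29.2, 27, 31.1 and 29.3 CPM in the controls and at 35.0, 37.6 and 39.3 CPM in the Rar mutants. The groups did not overlap, though the gap between control 1 and Rar mutant 1 was small, and the log2 fold change came to 0.31 (SE 0.12, edgeR adjusted p = 0.425). Insig1 (ENSMUSG00000045294, chromosome 5, 28071363 to 28078662) stood at 110, 76.9, 63.8, 90 and 82.8 CPM in the controls and at 75.3, 73.3 and 220 CPM in the Rar mutants. Only Rar mutant 3 was high, the other 2 being below the control mean of 84.6 CPM. The log2 fold change came to 0.54 (SE 0.33, edgeR adjusted p = 0.689), and -0.20 without Rar mutant 3.

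Among transport and storage genes, Abca1 (ENSMUSG00000015243, chromosome 4, 53030787 to 53159895), which exports cholesterol to lipoproteins and is a target of the sterol-sensing LXR receptors, stood at 277, 292, 98.1, 96.8 and 145 CPM in the controls. All 3 Rar mutants were higher, at 421, 342 and 407 CPM. The controls comprised a higher pair (controls 1 and 2) and 3 lower libraries, and the log2 fold change came to 1.1 (SE 0.36, edgeR adjusted p = 0.329). Leaving out any 1 library kept it between 0.94 and 1.34, and with Rar mutants 2 and 3 both left out it was 1.22. Soat1 stood at 808, 726, 527, 685 and 729 CPM in the controls and at 1040, 561 and 568 CPM in the Rar mutants. Rar mutant 1 lay above all controls and the other 2 within their range (log2 fold change 0.06, SE 0.23, edgeR adjusted p = 0.963).

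Stard4, a cytosolic sterol carrier, stood at 49.1, 25.1, 24.4, 27.1 and 26.9 CPM in the controls and at 32.6, 22.8 and 46.3 CPM in the Rar mutants. Control 1 and Rar mutant 3 were both high, and the ranges overlapped (log2 fold change 0.15, SE 0.27, edgeR adjusted p = 0.924). Npc1 ranged from 31.2 to 40.7 CPM in the controls and from 31.4 to 41.8 CPM in the Rar mutants (log2 fold change -0.01, SE 0.14, edgeR adjusted p = 0.988). Its lysosomal partner Npc2 stood at 301, 289, 215, 343 and 286 CPM in the controls and at 312, 229 and 179 CPM in the Rar mutants (log2 fold change -0.26, SE 0.20, edgeR adjusted p = 0.781). Lipe ranged from 14.8 to 25.2 CPM in the controls and from 12.9 to 22.2 CPM in the Rar mutants (log2 fold change -0.20, SE 0.24, edgeR adjusted p = 0.870).

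The Rar mutants differed from one another in which genes were high. Of the 31 members, 23 had their highest value of all 10 libraries in a Rar mutant, where 33.5% of all tested genes did. Rar mutant 1 was highest for 7: Hmgcs1, Ggps1, Sc5d, Dhcr7, Srebf1, Abca1 and Soat1. Rar mutant 2 was highest for another 7: Acat2, Mvk, Fdps, Lss, Tm7sf2, Nsdhl and Ebp. Rar mutant 3 was highest for 9: Pmvk, Idi1, Fdft1, Sqle, Cyp51, Msmo1, Srebf2, Insig1 and Insig2 (15.1% of all tested genes were highest there). Controls held the highest value for 6 members and Dmrt1 het Rar mutant 1 for 2, Lbr, a sterol reductase of the nuclear envelope, and Npc1.

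The Rar mutants also differed from one another in cell markers. Rar mutant 3 had 1050 CPM of Sult1e1, 557 CPM of Ereg, 209 CPM of Ptgs2 and 133 CPM of Pgr, genes induced in granulosa cells around ovulation, where every other library had at most 10.5 CPM of each. It also had 6440 CPM of Star against 81.7 to 1040 CPM elsewhere. Of the adrenal cortex genes, Akr1b7 was at 248 and 261 CPM and Cyp11b1 at 50 and 12.5 CPM in Rar mutants 2 and 3. Cyp11b2 stood at 1.04 and 0.343 CPM there and Cyp21a1 at 0.0415 CPM and 0. Mc2r, at 0.166 and 0.0429 CPM, was no higher there than in controls (0.121 to 0.183 CPM). The summed corpus luteum markers (9 of 9) ran from 9440 to 17900 CPM in controls, from 12100 to 19600 CPM in Rar mutants and from 10100 to 12100 CPM in Dmrt1 het Rar mutants. Macrophage markers (10 of 10) ran from 251 to 517, 261 to 425 and 222 to 333 CPM, and adipocyte markers (9 of 9, of which 4 were at 0 in some library) from 13.6 to 80.8, 17.2 to 79.3 and 22.9 to 23.4 CPM. Erythroid markers (5 of 5) summed to 2000 CPM in Rar mutant 2, 2710 CPM in Rar mutant 3 and 1640 CPM in control 3, against 297 to 662 CPM elsewhere. Over the 10 libraries theca markers (5 of 5) ran from 96 to 753 CPM, surface epithelium (8 of 8) from 134 to 497 CPM, endothelium (5 of 5) from 170 to 309 CPM and smooth muscle (5 of 5) from 431 to 986 CPM. With Rar mutants 2 and 3 both left out, a setting chosen after seeing the data, only Rar mutant 1 remained in its group. Its log2 fold changes were 0.13 for Cyp51, 0.09 for Msmo1, 0.42 for Idi1, 0.23 for Insig2 and 0.97 for Hmgcs1. The median over the members was then 0.21. The part of these cell states in the cholesterol genes was not tested.

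**Figure D4:**
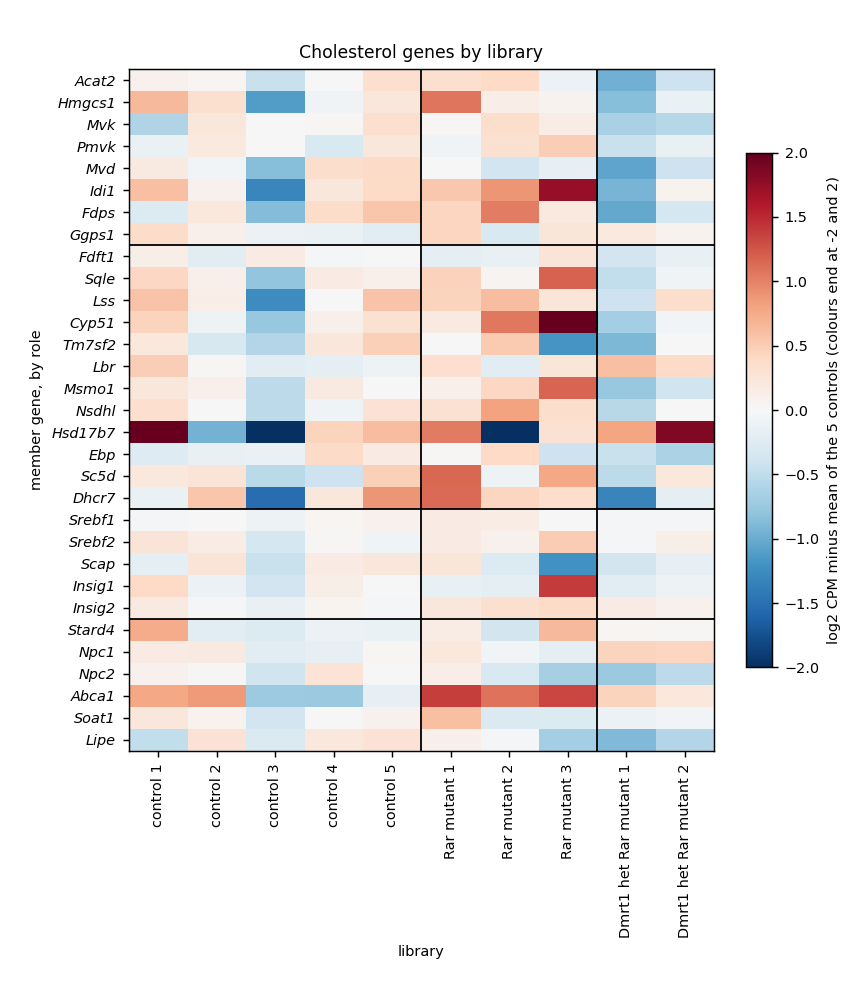
Log2 CPM of the 31 genes (rows, grouped by role) minus the mean of the 5 controls in each of the 10 libraries (columns); red is higher, blue lower, and colours end at -2 and 2. Control 3 and Dmrt1 het Rar mutant 1 are blue over most rows (median -0.45 in each), and Rar mutant 3 is red for Idi1, Sqle, Cyp51, Msmo1 and Insig1.

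Within the 6 libraries with title numbers of 7800 or more (2 Rar mutants, 4 controls) the median over the members was 0.16. There edgeR called 142 of all genes and 0 members, and with so few genes called a count of 0 says little about the members. Cyp51 had a log2 fold change of 1.69 there (edgeR adjusted p = 0.0834), Idi1 1.39, Abca1 1.24, Msmo1 0.86 and Insig2 0.40. The numbers under 7800 held 1 control and 1 Rar mutant, too few for a test: control 1 and Rar mutant 1 stood at 135 and 112 CPM for Cyp51, 135 and 129 CPM for Idi1, 217 and 198 CPM for Msmo1, 34.1 and 35.0 CPM for Insig2 and 277 and 421 CPM for Abca1. Of these 5 genes, Abca1 and Insig2 were higher in the Rar mutant of that pair.

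Dmrt1 het Rar mutants had lower levels than controls for 24 of the 31 members, and none passed the test. The median log2 fold change was -0.28 over the members and -0.02 over all genes, of which 48.0% were positive. The mevalonate genes had a median of -0.60 with 7 of 8 negative, the squalene and sterol genes -0.30 with 10 of 12 negative, the regulators -0.05 and transport and storage -0.06. Ovaries of this genotype differ from controls in 1 Dmrt1 allele and in the Rar genes at once, and Sf1-Cre with a floxed Dmrt1 allele alone was not analysed here.

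edgeR called 4 of 20570 genes (0.0194%) and 0 members, and without control 1 it called 364 genes and 0 members. At an unadjusted p under 0.05 there were 7 members, against 17.3% of all genes: Npc1 was higher (8.06% of all genes) and Acat2, Mvk, Mvd, Ebp, Npc2 and Lipe were lower (9.26%). DESeq2 called 360 genes (2.13%) and a term for title numbers 1 gene (0.00486%), with 0 members in either. Both libraries lay below every control for 3 members, Ebp, Npc2 and Lipe, and above every control for Npc1, against 14.3% and 14.1% of all genes.

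Acat2 (ENSMUSG00000023832, chromosome 17, 12942890 to 12960747) stood at 59.0, 57.1, 40.8, 55.7 and 70.7 CPM in the controls and at 28.7 and 41.8 CPM in the Dmrt1 het Rar mutants. Dmrt1 het Rar mutant 2 lay just above control 3, and the log2 fold change came to -0.68 (SE 0.24, edgeR adjusted p = 0.245). Mvk stood at 15.9, 28, 24.1, 24.5 and 30.3 CPM in the controls and at 15.3 and 16.2 CPM in the Dmrt1 het Rar mutants (log2 fold change -0.64, SE 0.23, edgeR adjusted p = 0.247). Control 1, the only control with a title number under 7800, was as low as they were, and with a term for those numbers the fold change of Mvk was -0.21. Npc2 was at 170 and 196 CPM, below the control minimum of 215 CPM (log2 fold change -0.65, SE 0.24, edgeR adjusted p = 0.249). Lipe was at 11.2 and 13.8 CPM, below the control minimum of 14.8 CPM (log2 fold change -0.76, SE 0.28, edgeR adjusted p = 0.249).

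Ebp stood at 28.3 and 25 CPM in the Dmrt1 het Rar mutants and at 32.3 to 50.6 CPM in the controls (log2 fold change -0.56, SE 0.24, edgeR adjusted p = 0.273). Lbr stood at 32.9 and 28.4 CPM against 18.8 to 30.4 CPM (log2 fold change 0.47, SE 0.22, edgeR adjusted p = 0.295). Control 1, at 30.4 CPM, was within the Dmrt1 het Rar mutants for Lbr, and with a title-number term its fold change was 0.11. Npc1 stood at 48.9 and 48.3 CPM, above the control maximum of 40.7 CPM. Of the regulators, Scap (log2 fold change -0.28, SE 0.33, edgeR adjusted p = 0.656) and Insig2 (log2 fold change 0.13, SE 0.14, edgeR adjusted p = 0.623) overlapped the controls. Dmrt1 het Rar mutant 1 was the lowest of all libraries for 10 members (9.83% of all tested genes were lowest there), and its median deviation was -0.45 on the log2 scale against -0.06 in Dmrt1 het Rar mutant 2. Without Dmrt1 het Rar mutant 1, the median over the members was -0.10, and without Dmrt1 het Rar mutant 2 it was -0.53.

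**Figure D5:**
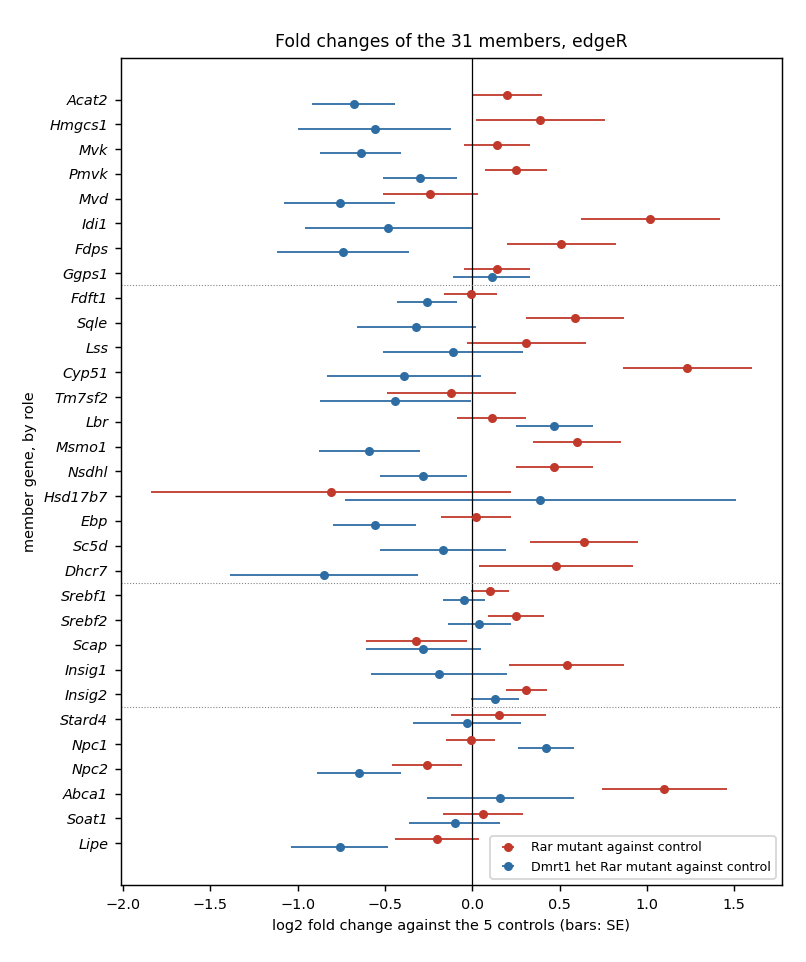
Log2 fold change (x axis) of the 31 genes (y axis, by role, separated by dotted lines) in Rar mutants (red) and Dmrt1 het Rar mutants (blue) against the same 5 controls; bars are SE. Cyp51, Abca1 and Idi1 lie furthest right in Rar mutants (1.23, 1.1 and 1.02), and 7 of 8 mevalonate genes lie left of 0 in Dmrt1 het Rar mutants.

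Both kinds of Rar-deleted ovary were then compared with each other. Levels were lower in Dmrt1 het Rar mutants than in Rar mutants for 27 of the 31 members, including 8 of 8 mevalonate genes, with a median log2 difference of -0.55 over the members and -0.01 over all genes, of which 49% were positive. The median was -0.83 for mevalonate genes, -0.66 for squalene and sterol genes, -0.18 for regulators and -0.28 for transport and storage. edgeR called 0 of 20570 genes (0%) and therefore 0 members, and without Rar mutant 1 it called 335 genes and 0 members. At an unadjusted p under 0.05 there were 12 members, 11 of them lower, against 16.9% of all genes 9.3% in the lower and 7.56% in the higher direction. Both Dmrt1 het Rar mutants lay below all Rar mutants for 16 members and above them for 2 (Lbr and Npc1), against 19.5% and 19.8% of all genes. Some summed cell markers separated these groups too. Granulosa markers (10 of 10 in the table) summed to 7800 and 7850 CPM in the Dmrt1 het Rar mutants against 3570 to 5470 CPM in the Rar mutants. The largest part in the Dmrt1 het Rar mutants was Gja1 (3070 and 2840 CPM against 1180 to 1920 CPM), whereas Amh, Foxl2 and Inha overlapped. Surface epithelium markers (8 of 8 in the table) summed to 134 and 162 CPM against 206 to 406 CPM, with Krt8 and Lrrn4 overlapping. Adrenal cortex genes summed to 1.01 and 1.14 CPM against 3.31 to 299 CPM. The remaining lists overlapped, or met near 12100 CPM for corpus luteum. The part of cell makeup in the lower cholesterol genes was not tested.

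DESeq2, the other tool, called 676 genes (3.90%) in this comparison, among them 3 members that were all lower. These were Msmo1 (log2 difference -1.21, adjusted p = 0.0213 by DESeq2), Cyp51 (-1.63, adjusted p = 0.0332 by DESeq2) and Acat2 (-0.89, adjusted p = 0.0421 by DESeq2). By edgeR, Msmo1 had a log2 difference of -1.19 (SE 0.32, edgeR adjusted p = 0.205), with 109 and 140 CPM against 198 to 413 CPM. Acat2 had -0.88 (SE 0.26, edgeR adjusted p = 0.207), with 28.7 and 41.8 CPM against 51.4 to 73.9 CPM. Cyp51 had -1.62 (SE 0.50, edgeR adjusted p = 0.216), with 62.0 and 95.2 CPM against 112 to 407 CPM. Mvk, the next in order, had -0.78 (SE 0.25, edgeR adjusted p = 0.219). Without Rar mutant 3 the edgeR differences were -0.81 for Msmo1, -0.99 for Cyp51 and -1.01 for Acat2. The Dmrt1 het libraries both have title numbers under 7800 and 2 of the 3 Rar mutants have higher ones. With a term for those numbers the edgeR differences were -1.08 for Msmo1 (adjusted p = 0.515), -0.95 for Acat2 (adjusted p = 0.497), -1.42 for Cyp51 (adjusted p = 0.58) and -0.45 for Mvk (adjusted p = 0.579). Rar mutant 1, the Rar mutant with a number under 7800, stood at 198 CPM for Msmo1, 69.4 CPM for Acat2 and 112 CPM for Cyp51.

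All 5 Rar-deleted ovaries were also pooled against the 5 controls, the grouping that the design text of the series describes. The pool joins 2 groups whose member medians against controls had opposite signs (0.20 in Rar mutants, -0.28 in Dmrt1 het Rar mutants). Pooled, the median log2 fold change was 0.09 over the members, with single members from -0.42 to 0.80, and 21 of 31 were positive. The median over all genes was 0.00 and 50.2% of them were positive. edgeR called 21 of 18954 genes (0.111%) and 0 members (5 to 52 genes and 0 members when 1 library was left out, with 52 without control 1), and 2 members, Insig2 and Abca1, had an unadjusted p under 0.05, both higher (8.47% of all genes, 4.24% higher and 4.23% lower). In 0 members did the groups not overlap, against 0.681% of all genes with every Rar-deleted ovary above and 1.08% below. A term for title numbers gave 40 called genes (0.211%) and 0 members. DESeq2 called 168 genes (0.889%) and 0 members. Abca1 averaged 315 ± 107 CPM against 182 ± 96.1 CPM (log2 fold change 0.80, SE 0.36, edgeR adjusted p = 0.589), and all 5 Rar-deleted ovaries were above the control mean. Insig2 averaged 35.6 ± 2.90 against 30.1 ± 2.63 CPM (log2 fold change 0.24, SE 0.11, edgeR adjusted p = 0.588), also above the control mean in 5 of 5. Npc2 and Lipe were lower on average, at 217 ± 57.6 against 287 ± 46.3 CPM (log2 fold change -0.40, SE 0.19, edgeR adjusted p = 0.607) and 16.0 ± 4.81 against 21.2 ± 4.96 CPM (log2 fold change -0.40, SE 0.23, edgeR adjusted p = 0.640). The authors' deposited table of differential expression held 185 genes, beside 24306 in the count table, and 0 of the 31 members. Its file headers do not name the comparison.

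Other genes of lipid metabolism were read from 5 further lists, and 0 of their genes were called by edgeR in any comparison. For Rar mutants against controls, 10 of 17 genes of sterol uptake and regulation were positive (median 0.13). The lead gene was Scarb1, the receptor for high-density lipoprotein, with 1020 ± 534 against 596 ± 147 CPM (log2 fold change 0.77, SE 0.33, edgeR adjusted p = 0.489, and 0.26 without Rar mutant 3). Mbtps1, the protease that first cuts the Srebf proteins, had -0.22. Of 8 efflux genes 3 were positive (median -0.06), led by the lipid transfer gene Pltp (-0.42) and the cholesterol esterifying Lcat (0.46). Of 8 tested lipid droplet and ester genes 1 was positive (median -0.24), led by the droplet coat gene Plin3 (-0.36) and Soat2 (-1.14, at 0.636 ± 0.370 against 1.41 ± 1.33 CPM, and -0.45 without control 1).

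Of 13 fatty acid synthesis genes 5 were positive in Rar mutants (median -0.12), and 4 had an unadjusted p under 0.05, 3 higher and 1 lower, against 9.45% of all genes. Acly, which supplies cytosolic acetyl-CoA to both lipid pathways, averaged 646 ± 211 against 348 ± 89.5 CPM (log2 fold change 0.89, SE 0.25, edgeR adjusted p = 0.237, and 0.59 without Rar mutant 3). Scd1, a fatty acid desaturase, averaged 99.4 ± 55.4 against 43.5 ± 14.3 CPM (log2 fold change 1.19, SE 0.34, edgeR adjusted p = 0.240, and 0.68 without Rar mutant 2). The lower gene, Thrsp, a lipogenic gene named here after its values were seen, averaged 3.55 ± 0.528 against 7.9 ± 5.46 CPM (log2 fold change -1.15, SE 0.5, edgeR adjusted p = 0.498). Of 12 steroid synthesis genes 7 were positive (median 0.14), and 4 had an unadjusted p under 0.05, 3 higher and 1 lower. The list was led by Fdx1, the electron donor of cholesterol side-chain cleavage (log2 fold change 1.02, SE 0.28, edgeR adjusted p = 0.205, against 1.03 and an adjusted p = 0.0352 by DESeq2), and by Hsd17b1, which makes estradiol in granulosa cells (-0.78, SE 0.22, edgeR adjusted p = 0.240).

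In Dmrt1 het Rar mutants against controls the list medians were 0.08 for uptake and regulation, -0.26 for efflux, -0.38 for lipid droplet and ester, -0.07 for fatty acid synthesis and -0.32 for steroid synthesis. The 2 genes with the smallest p in each list were Lrp1 (0.79) and Mylip (0.39), Pltp (-0.80) and Abcg1 (0.65), Mgll (-0.85) and Plin3 (-0.61), Acss2 (-1.06) and Thrsp (-1.01), and Tspo (-0.85) and Stard5 (-0.65), all log2 fold changes. Lrp1 is a lipoprotein receptor and Mylip an E3 ligase that degrades the LDL receptor. Mgll, a monoacylglycerol lipase, averaged 15.6 ± 3.89 against 28.1 ± 6.30 CPM (log2 fold change -0.85, SE 0.25, edgeR adjusted p = 0.243).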

How the data were processed

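PolyA RNA of 10 whole ovaries was sequenced with a stranded kit, per the labels. The submitters' processing notes name Trimmomatic 0.32, STAR 2.4.2a, SAMtools 1.0 and DESeq2 1.12.3 and the build GRCm38 (mm10); the counting tool, its annotation and its use of strand are not given in the sources used here. The deposited count table holds raw counts of 24306 genes. The deposited FPKM were scaled by the authors with median-of-ratios size factors: the ratio of count to FPKM, divided by the size factor, varied by a median of 0.039% between libraries, and divided by the total count by 6.12%. The authors' table of differential expression lists, per the file headers, a signal (the mean of normalised counts), log2 fold changes and their errors, a score (the Wald statistic) and raw and adjusted p-values; it was used here only to look for the members.

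The count test was edgeR's quasi-likelihood test (edgeR 4.0.16, R 4.3.3; TMM, filterByExpr, robust), two-sided, with Benjamini-Hochberg adjustment over all genes tested and a threshold of 0.05. One fit of the 3 groups (20570 genes) gave 3 comparisons, and a fit of 2 groups (18954 genes) gave the pooled one. The SE of a fold change is approximate, its size over the square root of the F statistic; errors beside means are SD, and n counts libraries. The fits were checked on simulated data. Promoters came from RefSeq (GRCm38.p6), positions and antisense overlaps from GENCODE M21, where 31 of 31 members matched and 8 overlapped exons of an antisense gene (Ggps1, Fdft1, Cyp51, Lbr, Srebf1, Scap, Npc1 and Lipe). All 14 pairs of libraries within a group differed by more than sampling noise.

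All members are described by level. Fold changes with tests are printed for called members, for the 2 members with the smallest p in each role (comparisons with controls by group) or the 4 smallest (others), and for Hmgcs1, Sqle, Insig1, Insig2, Srebf1, Srebf2, Stard4, Npc1, Abca1, Soat1 and Lipe in Rar mutants; from each other list, the 2 smallest. The fold change of Hsd17b7 and those summarised as ranges were added after their values were seen. Members, lists and tests were chosen with earlier results of these data known. Alternatives were other size factors, other filters on low counts, DESeq2 1.42.0, a replicate block, a title-number term, the 6 libraries of higher title number, fits of 2 groups alone and leaving out libraries.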

Additional observations from a re-analysis of the deposited data

Results flagged for a closer look

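In 5 of 62 sets of 5 libraries (each member in the 5 controls and in the 5 Rar-deleted ovaries), 1 library stood away from the other 4 by more than Dixon's 95% critical value of 0.71 for the gap over the range. Chance flags about 1 in 20 such groups. In control 1, Hsd17b7 was at 959 CPM with the next control at 221 CPM (gap over range 0.786), Stard4 at 49.1 CPM with the next at 27.1 CPM (0.887) and Lbr at 30.4 CPM with the next at 21.9 CPM (0.728). In Rar mutant 3, Insig1 was at 220 CPM with the next Rar-deleted ovary at 77.3 CPM (0.957). In Rar mutant 1, Soat1 was at 1040 CPM with the next at 664 CPM (0.784).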

How the results depend on the processing

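Under the alternatives run, 0 members were called in Rar mutants or Dmrt1 het Rar mutants against controls and in the pooled comparison, except that Cyp51 was called without Rar mutant 1 (0 to 1 members over the libraries left out in turn). In Dmrt1 het Rar mutants against Rar mutants, DESeq2 called 3 members and the other alternatives 0. The smallest member adjusted p over the alternatives was 0.0402, 0.0502, 0.0213 and 0.212 in the 4 comparisons in the order of the report. The 0.0213 came from DESeq2 and the others from edgeR. The median over the members ran from 0.11 to 0.32 in Rar mutants, from -0.53 to -0.10 in Dmrt1 het Rar mutants, from -0.79 to -0.40 between them and from 0.01 to 0.24 pooled when 1 library was left out, against a control SD of 0.27; pooled without Rar mutants 2 and 3 it was -0.06. From levels alone, the median log2 ratio of Rar mutant to control means was 0.20 in FPKM and in CPM, and 0.12 to 0.33 over the libraries left out. Of 944 alternative values for 52 single-gene results, 920 kept direction and side of the threshold, 5 passed the threshold newly and 19 changed sign. All sign changes were in Rar mutants against controls. None of the 52 passed the threshold in the main fit, and leaving out a library outside a comparison hardly moves its fold change. The count of 920 is therefore not a measure of robustness. Npc1 was 0.00 without a filter and in the 2 groups alone, 0.21 without Rar mutants 2 and 3, and -0.13 to 0.07 over the libraries left out in turn. Soat1 was -0.07 with the title-number term, -0.24 in the 6 libraries of higher number and -0.30 to 0.21 over the libraries left out. Without Rar mutants 2 and 3, Npc2 was 0.13, Insig1 -0.16 and Lipe 0.08. Over the libraries left out, Hmgcs1 ran from -0.01 to 0.57, Insig1 from -0.20 to 0.81 and Stard4 from -0.15 to 0.39; the cause of these changes was not tested. Replicate numbers were shared by title, but same-numbered control and Rar mutant libraries had correlations of their deviations of 0.43, 0.01 and 0.23, so they were not taken as pairs, and not every library correlated best with its own number; with the replicate block 0 members were called in any comparison. Where leaving out libraries left 1 in a group, it was assumed to vary like the others. The 6 libraries of higher title number hold no Dmrt1 het Rar mutant, so that setting has no value for their comparisons. Its pooled fit only repeats Rar mutants against controls (smallest member edgeR adjusted p = 0.0834) and was not counted above as a pooled value. The lowest member value was 7 CPM, against a floor of at most 0.137 CPM, so no member was near the limit of detection.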
